A study of Mus musculus with 8 samples.

Results

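The transcripts described here encode proteins that move or store zinc, magnesium, iron and copper, measured by RNA sequencing of whole mouse cerebellum. They were taken from the gene table by name: the zinc exporters of the Slc30 family, the zinc importers of the Slc39 family, the magnesium genes Slc41a1 to Slc41a3 and Cnnm1 to Cnnm4, and 14 named iron and copper genes. A gene also needed 10 or more counts in at least 4 of the 8 libraries. Of the 45 rows with such names among the 24060 rows of the table, 42 met this minimum: 8 zinc exporters, 13 zinc importers, 7 magnesium genes, 6 iron transport genes, 4 iron storage and regulation genes and 4 copper transporters. The 3 others had too few reads. Slc30a2 had 8, 2, 5 and 4 counts in bigenic libraries 1 to 4 and 3, 1, 3 and 2 in control libraries 1 to 4, and Slc30a8 and Slc39a5 had at most 4 counts in any library.

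The comparison was between 4 bigenic mice and 4 control mice. Bigenic mice carried the CalExflox allele and Aldh1l1-Cre/ERT2, in which astrocyte regulatory sequence drives a Cre recombinase that tamoxifen activates. Recombination turns on CalEx, a calcium pump of the plasma membrane that was built to lower calcium in the cells that make it. Controls had CalExflox and no Cre. Every mouse, control mice included, was injected intraperitoneally with tamoxifen in corn oil (25 mg/ml) at 75 mg/kg, and cerebella were collected 5 days afterwards. Each library came from a mouse of its own. Age and sex are not given in the labels. Cre was present only in bigenic mice, so effects of the pump and of Cre cannot be told apart, and no row of the table reports the construct.

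Metal ions are moved by families with opposing directions. Slc30 proteins take zinc out of the cytosol, across the cell membrane or into vesicles, and Slc39 proteins bring it in. Iron bound to transferrin enters brain cells through the transferrin receptor, leaves endosomes through the divalent metal transporter Slc11a2, is stored in ferritin and is exported by ferroportin (Slc40a1) with the help of the ferroxidase ceruloplasmin. In brain, oligodendrocytes and choroid plexus epithelium make much of the transferrin. Copper enters through Slc31a1 and is pumped out or into the Golgi by Atp7a and Atp7b. Slc41 proteins and the Cnnm proteins are linked to magnesium transport.

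Iron control acts on messages as well as on genes, so the control elements carried by these transcripts are shown first. The iron-responsive element is a short hairpin with a bulged C and the loop CAGTGN, which the iron-regulatory proteins Aco1 and Ireb2 bind. In a 5′ untranslated region it lowers translation when bound, and in the 3′ untranslated region of Tfrc it protects the message. The non-coding parts of protein-coding transcripts (GENCODE M21, mm10) were searched for a C, 5 bases, the loop and 5 more bases. These had to pair with the first 5, G with T included, and the last loop base had to be A, C or T. Elements with a mismatch in the stem or another loop are not found in this way, so a gene without a match may still carry one. There were 17-base matches in 123 of 21877 genes, or 0.562%. Among the 42 metal genes, 4 had a match. Capitals mark the bulged C and the loop, and the letters are those of the sense strand, 5′ to 3′.
Tfrc, 3′ side, chr16:32631225-32631241, plus strand: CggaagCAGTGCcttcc
Tfrc, 3′ side, chr16:32631604-32631620, plus strand: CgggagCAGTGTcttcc
Tfrc, 3′ side, chr16:32631669-32631685, plus strand: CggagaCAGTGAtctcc
Tfrc, 3′ side, chr16:32631716-32631732, plus strand: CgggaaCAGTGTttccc
Fth1, 5′ side, chr19:9982738-9982754, plus strand: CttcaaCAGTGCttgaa
Ftl1, 5′ side, chr7:45459785-45459801, minus strand: CttcaaCAGTGTttgaa
Slc40a1, 5′ side, chr1:45925471-45925487, minus strand: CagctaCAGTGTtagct
The same search found the element on the 5′ side of Alas2, which starts heme synthesis in red cell precursors.
Alas2, 5′ side, chrX:150547464-150547480, plus strand: CgtcctCAGTGCagggc
The search fixed the loop bases CAGTG, so all matches share them. The last loop base was C, T, A and T in the 4 Tfrc matches, C in Fth1 and T in Ftl1 and Slc40a1. The paired bases of the Tfrc matches differ from those in both ferritin messages and in Slc40a1. The data give RNA levels, and translation was not measured.

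Libraries held between 35208460 and 38293012 counted reads. The cerebellar label was borne out by high levels of the granule neuron gene Cbln3 and the Purkinje neuron gene Itpr1, whose lists summed to 4367 to 6112 and 12872 to 14351 CPM (read counts scaled to library size, with TMM factors) in bigenic libraries and to 4587 to 5611 and 11352 to 13434 CPM in controls. Choroid plexus transcripts stood apart within the controls. Of 13 choroid plexus markers, 11 were tested and 9 were lower in bigenic tissue; their sum was 86.0 to 104 CPM in bigenic libraries, against 394, 2601, 3242 and 80.0 CPM in control libraries 1 to 4. Ttr, the leading marker, was at 4.62, 2.43, 2.75 and 2.25 CPM in bigenic libraries and at 300, 2360, 2962 and 2.76 CPM in controls. Control library 4 thus matched the bigenic libraries in Ttr, and control libraries 2 and 3 held the most. The fit was therefore repeated without control libraries 2 and 3, and without control libraries 1 to 3, a setting that was added after the data were seen and leaves 4 bigenic libraries against control library 4. Astrocyte markers summed to 8389 to 9585 CPM in bigenic and 6638 to 7174 CPM in control libraries (10 tested, 5 higher and 1 lower), led by Slc1a3. Without Glul, singled out after its values were seen, the other 9 summed to 5666 to 6592 CPM in bigenic and 5331 to 5833 CPM in control libraries, which overlap. The sums were 4870 to 6405 CPM in bigenic and 4387 to 5366 CPM in control libraries for oligodendrocytes (10 tested, 4 higher and 2 lower), led by Mbp, and 248 to 265 CPM against 255 to 285 CPM for endothelium (8 tested, 1 higher and 1 lower), led by Slco1a4. Microglia and macrophage markers summed to 85.8 to 113 CPM in bigenic and 121 to 134 CPM in control libraries (9 tested, 1 higher and 5 lower), led by Csf1r. In bulk tissue, fewer cells of a type and less RNA per cell cannot be told apart.

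In bigenic cerebellum 12 of the 42 metal genes were higher and 10 were lower than in control cerebellum, and 20 were not called. The magnesium genes Cnnm3 and Slc41a3 had the largest increases, at 2.29-fold and 2.26-fold. Slc39a10 (1.83-fold), Slc30a10 (1.78-fold) and transferrin (Trf, 1.64-fold) had the largest decreases apart from Slc39a4, which was near the detection limit. The edgeR quasi-likelihood test with Benjamini-Hochberg adjustment over 15186 genes was used throughout, with a gene called at an adjusted p under 0.05. The called share of 52.4% stood beside 44.3% of all genes tested, of which 21.4% were higher and 22.9% lower, so the share is near the background. For 19 of the 42 genes the 4 bigenic values all lay on one side of the 4 control values (40.7% of all genes), and 8 were called with more than a 1.5-fold change (19.5% of all genes). The median log2 fold change of the 42 genes was 0.04, against -0.00414 for all genes tested, and no called gene changed direction under another scaling. Library size alone moved the median of all genes by -0.085 (it was then -0.0893), and that of the 42 genes by as much, to -0.047. The split moved with it: 8 metal genes were higher and 11 lower with library size alone (16.0% of all genes higher and 28.8% lower, 44.8% called), and 8 were higher and 10 lower on log2(FPKM + 1) values tested with limma (15.5% of all genes higher and 28.6% lower, 44.1% called). Without control libraries 2 and 3, 6 genes were higher and 4 lower (21.9% of all genes called), and against control library 4 alone 4 were higher and 3 lower (11.6% of all genes called). The 10 genes called without control libraries 2 and 3 were Cnnm3, Slc41a3, Slc41a1, Cp, Tfrc, Ireb2, Slc39a10, Slc30a10, Trf and Atp7a, and the other 12 lost their call. Against control library 4 alone Tfrc, Ireb2 and Atp7a were not called either. With Ttr as a covariate, 7 metal genes were higher and 3 lower (19.3% of all genes called).

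**Figure D1:**
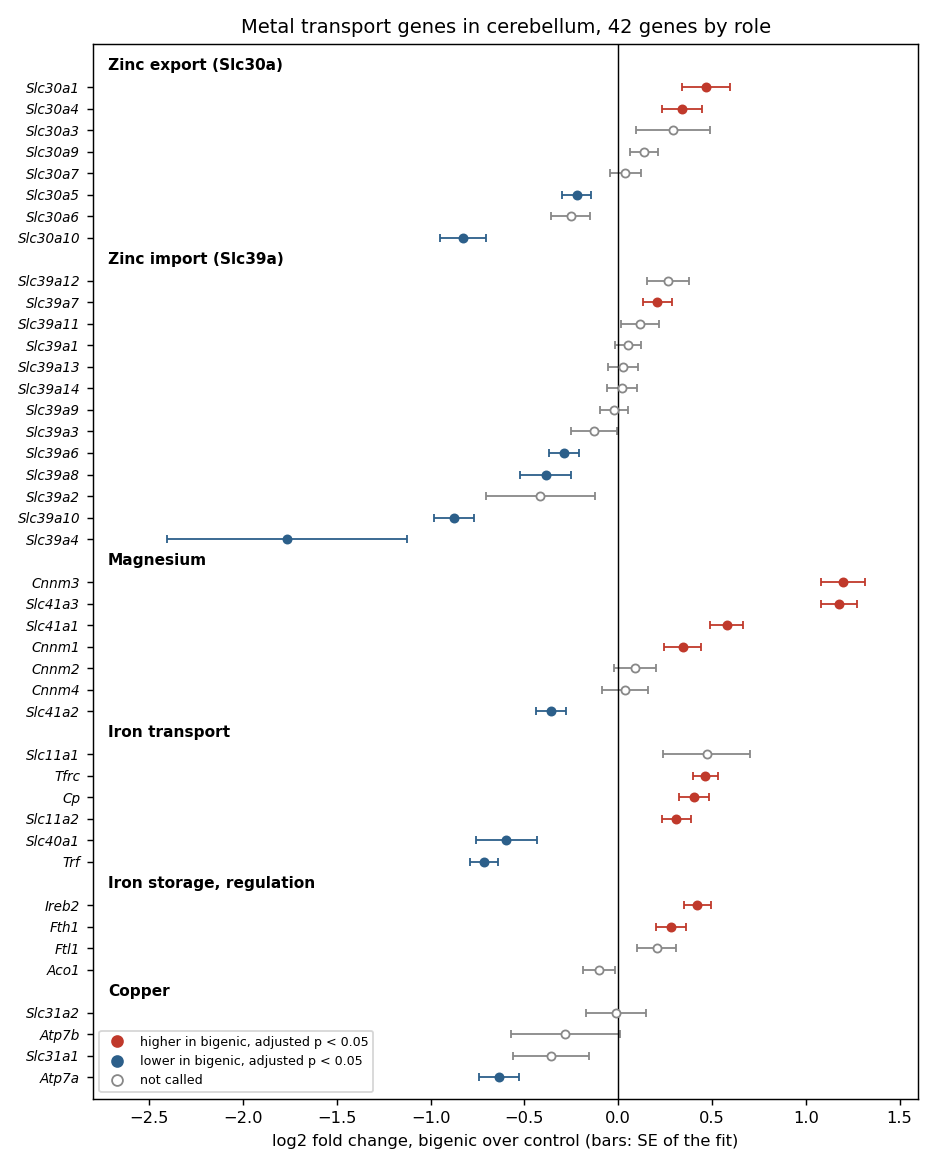
Log2 fold change of each of the 42 metal genes, bigenic over control, grouped by role, with the standard error of the fit as bars and called genes (adjusted p under 0.05) distinguished from genes not called. Cnnm3 (1.20) and Slc41a3 (1.18) lie farthest to the right; Slc39a4 (-1.77), Slc39a10 (-0.87), Slc30a10 (-0.83) and Trf (-0.71) lie farthest to the left.

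Iron transport genes changed in both directions. Of the 6, 3 were higher (Tfrc, Slc11a2 and Cp) and 2 lower (Trf and Slc40a1). The called share was 83.3% of these few genes, beside the 44.3% of all genes. The receptor was higher while its ligand was lower, and Slc40a1, the exporter, was lower while Slc11a2, which carries iron out of endosomes, was higher. Trf and Tfrc were the most abundant of the 6 by length-corrected level, at 288.8 ± 84.6 and 63.4 ± 9.32 FPKM (SD over 8 libraries), and the other 4 lay between 0.54 and 9.25 FPKM. The median log2 fold change of these 6 genes was 0.36, against -0.00414 for all genes tested.

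Transferrin, the iron carrier (Trf, chromosome 9, 103204001 to 103230444, minus strand), measured 451, 525, 556 and 494 CPM in the bigenic mice, in the order 1 to 4, against 814, 873, 823 and 815 CPM in the control mice. Every bigenic library was below every control, and the controls, with or without choroid plexus transcripts, lay close together. Trf fell by 0.71 ± 0.08 (SE) on the log2 scale in bigenic tissue (edgeR quasi-likelihood test, adjusted p = 5.39e-05). The log2 fold change was -0.69 without control libraries 2 and 3 and -0.69 against control library 4 alone, and the gene was called in both. The summed oligodendrocyte markers were not lower in bigenic libraries. Trf exons overlap those of Gm20425 on the same strand, and reads could be shared.

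The transferrin receptor, which takes up iron-loaded transferrin (Tfrc, chromosome 16, 32608920 to 32632794, plus strand), stood at 364, 331, 382 and 376 CPM in bigenic libraries and at 266, 263, 261 and 264 CPM in controls. The control values were almost identical and all lay below the bigenic ones. The difference of 0.46 ± 0.07 (SE, log2) was larger than the spread between replicates (edgeR, adjusted p = 0.000304). Against control library 4 alone the log2 fold change was also 0.46, with an adjusted p of 0.073 in that smaller edgeR comparison. This is the message with 4 matches to the iron-responsive element on its 3′ side.

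Slc11a2, also known as divalent metal transporter 1 (chromosome 15, 100387898 to 100425072, minus strand), had 53.9, 53.8, 59.8 and 54.9 CPM in bigenic and at 46.8, 45.5, 46.6 and 40.5 CPM in control libraries. The groups did not overlap. Its log2 fold change was 0.31 ± 0.08 (SE; edgeR, adjusted p = 0.0072), with an adjusted p of 0.056 without control libraries 2 and 3. Its exons overlap the antisense gene Gm5475. Ceruloplasmin, a copper-containing ferroxidase that astrocytes hold on their membrane (Cp, chromosome 3, 19957054 to 20009145, plus strand, antisense to Hps3), was at 67.7, 65.2, 69.4 and 62.9 CPM in bigenic and at 49.1, 50.5, 55.7 and 45.4 CPM in control libraries. All bigenic values were above all controls, and the log2 fold change was 0.40 ± 0.08 (SE; edgeR, adjusted p = 0.00187). It stayed past the threshold without control libraries 2 and 3 (0.49) and against control library 4 alone (0.55). The astrocyte marker sum was higher in the same libraries, though not without overlap once Glul was left out, and its part in the Cp difference was not tested.

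Ferroportin, the iron exporter (Slc40a1, chromosome 1, 45908068 to 45926523, minus strand), measured 9.67, 5.25, 6.55 and 7.23 CPM in bigenic and at 11.2, 10.1, 10.9 and 11.1 CPM in control libraries. Bigenic library 1 came nearest to the controls, but no value crossed. Slc40a1 fell by 0.60 ± 0.16 (SE, log2; edgeR, adjusted p = 0.0116). Without control libraries 2 and 3 the log2 fold change was -0.64 (adjusted p = 0.061) and against control library 4 alone it was -0.63. Microglia and macrophage markers, a cell class that also expresses ferroportin, were lower in bigenic libraries, and their part in this difference was not tested. Slc11a1, a phagosome metal transporter of macrophages, had 0.47 ± 0.23 (SE, log2; adjusted p = 0.12) and was not called.

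Iron storage and regulation genes included 2 that were higher, Fth1 and Ireb2, and none called lower among 4. Ferritin heavy chain, the ferroxidase subunit of the storage shell (Fth1, chromosome 19, 9980598 to 9985098, plus strand), stood at 531, 545, 609 and 514 CPM in bigenic and at 409, 464, 445 and 490 CPM in control libraries. The groups did not overlap, although control library 4 lay close to the lowest bigenic value. Its log2 fold change was 0.28 ± 0.08 (SE; edgeR, adjusted p = 0.0140), and it was not past the threshold with library size alone (0.19), on FPKM values, or without control libraries 2 and 3 (0.29, adjusted p = 0.102). Ferritin light chain (Ftl1, chromosome 7, 45457944 to 45459884, minus strand) had 187, 136, 169 and 190 CPM in bigenic and at 158, 157, 135 and 141 CPM in control libraries. Bigenic library 2 lay within the controls, and Ftl1 was not called over all 8 libraries (0.20 ± 0.11 SE, adjusted p = 0.13), but it was without bigenic library 2. The annotation holds 2 pseudogenes with heavy chain names and 2 with light chain names, none of them a row of the table. Pseudogenes under other names were not counted, and shared reads make both values uncertain. Ftl1 also overlaps Gm22133 and Gm10252.

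Ireb2, iron-regulatory protein 2 (chromosome 9, 54863789 to 54912530, plus strand), measured 99.2, 105, 99.6 and 90.1 CPM in bigenic and at 75.3, 72.2, 71.2 and 75.1 CPM in control libraries. The groups stood clear of each other, with a log2 fold change of 0.42 ± 0.07 (SE; edgeR, adjusted p = 0.00066). It was 0.39 without control libraries 2 and 3, where it remained called, and 0.39 against control library 4 alone, with an adjusted p of 0.12. Aco1, the other iron-regulatory protein and a cytosolic aconitase, had -0.10 ± 0.08 (SE, log2; adjusted p = 0.34) and was not called. The 4 metal genes with a match in the hairpin search therefore held 2 higher (Tfrc, Fth1), 1 lower (Slc40a1) and 1 not called (Ftl1). Of all genes tested 44.3% were called, and a relation of these few calls to the element was not tested. Genes whose hairpin departs from the searched pattern are not counted here. In summed FPKM, the iron storage and regulation genes were at 514.7 to 577.9 in bigenic and 467.1 to 520.1 in control libraries, and the iron transport genes, mostly Trf, at 286.1 to 323.1 in bigenic and 432.5 to 459.7 in control libraries. The control range lay wholly above the bigenic range for transport and overlapped it for storage.

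**Figure D2:**
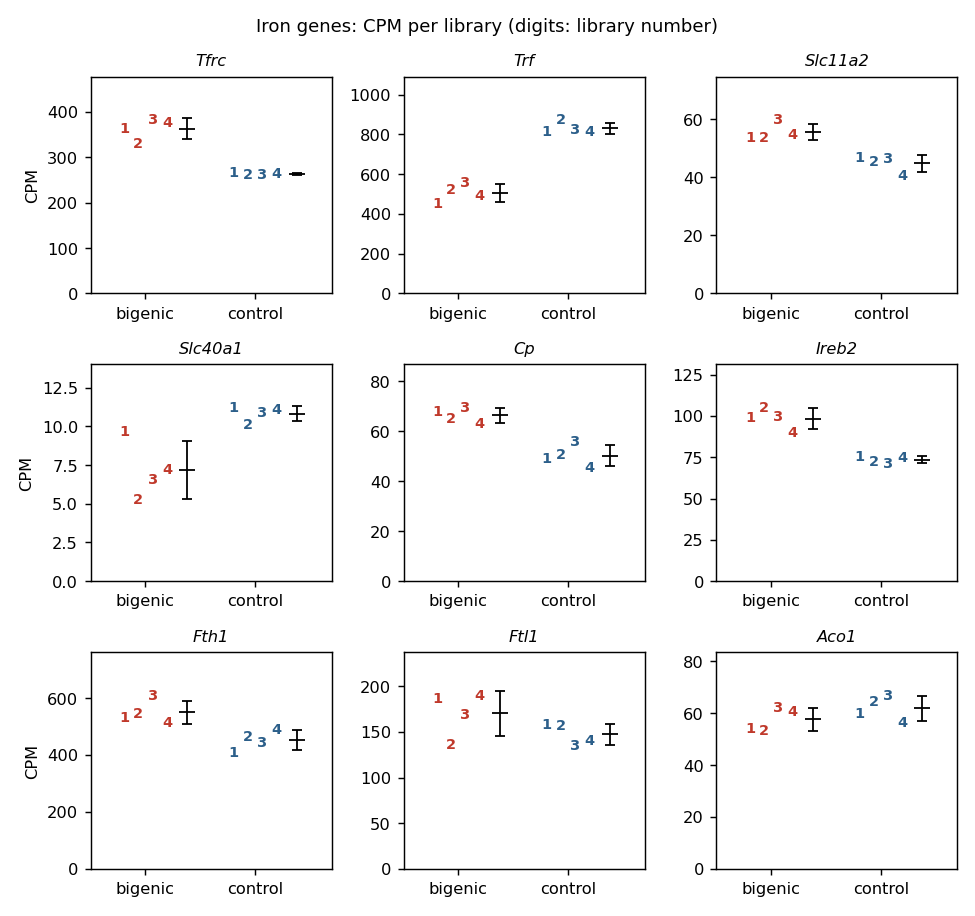
TMM-scaled CPM of iron genes in each library, with bigenic libraries left of controls, digits giving the library number and bars the mean and SD of 4. Tfrc, Slc11a2, Cp, Fth1 and Ireb2 lie higher and Trf and Slc40a1 lower in all 4 bigenic libraries than in any control, and Ftl1 and Aco1 overlap.

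Other iron and heme genes were listed by function. Of 33, 27 were tested, and 8 were higher and 6 lower in bigenic cerebellum, a called share of 51.9% beside the 44.3% of all genes. Slc25a28, mitoferrin 2, which brings iron into mitochondria, was at 50.9, 41.9, 53.3 and 54.2 CPM in bigenic and at 28.6, 27.9, 27.7 and 27.3 CPM in control libraries. The groups were far apart, with a 1.80-fold difference (log2 0.84 ± 0.09 SE; edgeR, adjusted p = 5.65e-05), and it was called in every setting tried. Heph, a membrane ferroxidase related to ceruloplasmin, was at 25.3, 22.7, 23.0 and 20.6 CPM in bigenic and at 13, 14.2, 13.5 and 17.3 CPM in control libraries. No values crossed (log2 0.66 ± 0.11 SE; edgeR, adjusted p = 0.00077), but with Ttr as a covariate it was 0.46 with an adjusted p of 0.066. Lcn2, a secreted binder of bacterial iron carriers and an acute-phase gene, was at 5.56, 9.31, 4.10 and 10.5 CPM in bigenic and at 0.134, 0.538, 0.499 and 0.623 CPM in control libraries. All bigenic values were several times the highest control (log2 4.02 ± 0.40 SE; edgeR, adjusted p = 4.03e-05). It remained called without control libraries 2 and 3 (4.25) and against control library 4 alone (3.56). Slc48a1, a heme transporter of endosomes and lysosomes, had 0.40 ± 0.07 (SE, log2; adjusted p = 0.00136), and neither it nor Heph was called against control library 4 alone (adjusted p = 0.141 and 0.174).

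Alas2, the message with a 5′ iron-responsive element, was at 0.257, 1.00, 0.299 and 4.01 CPM in bigenic and at 6.55, 6.59, 7.59 and 6.28 CPM in control libraries. Bigenic library 4 was well above the other bigenic libraries, yet below all controls. Alas2 fell by 2.27 ± 0.69 (SE, log2; edgeR, adjusted p = 0.027), a call lost in 8 of 21 alternative settings, among them when bigenic library 2, bigenic library 3 or control library 2 was left out, without control libraries 2 and 3 (-2.20, adjusted p = 0.062), against control library 4 alone, with Ttr as a covariate and with no filter on low counts. The 2 erythroid markers that were tested, Alas2 among them, summed to 1.02 to 4.78 CPM in bigenic and 7.52 to 8.95 CPM in control libraries, and the 4 globin rows are listed at 0 in all 8 libraries. The part of blood in this difference was not tested.

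Magnesium genes had the largest increases among the 42. Of the 7, 4 were higher (Cnnm3, Slc41a3, Slc41a1 and Cnnm1), 1 was lower (Slc41a2), and Cnnm2 and Cnnm4 were not called. The called share was 71.4% of these few genes, beside the 44.3% of all genes. The median log2 fold change was 0.34, against -0.00414 for all genes tested. Slc41a3, which is linked to magnesium efflux from mitochondria (chromosome 6, 90604725 to 90646412, plus strand), stood at 103, 95.5, 97.8 and 116 CPM in bigenic and at 52.4, 46.0, 43.8 and 40.0 CPM in control libraries. The lowest bigenic value was well above the highest control. It rose 2.26-fold (log2 1.18 ± 0.10 SE, edgeR, adjusted p = 1.07e-05). The log2 fold change was 1.16 without control libraries 2 and 3 and 1.37 against control library 4 alone. Slc41a3 lies after Aldh1l1 (chromosome 6, 90486427 to 90600203) on the same strand, the gene that Aldh1l1-Cre/ERT2 is named after. Aldh1l1, named here for its position, was also higher (log2 0.48 ± 0.07 SE, edgeR, adjusted p = 0.00026). Whether Aldh1l1-Cre/ERT2 has a part in the Slc41a3 difference was not tested.

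Cnnm3, a member of the cyclin M family of magnesium transport mediators (chromosome 1, 36511867 to 36528237, plus strand, antisense to Gm38033), was at 44.2, 54.0, 46.4 and 43.1 CPM in bigenic and at 25.1, 19.5, 18 and 19.3 CPM in control libraries. The groups did not approach each other. It rose 2.29-fold (log2 1.20 ± 0.12 SE; edgeR, adjusted p = 3.01e-05), with 1.08 without control libraries 2 and 3 and 1.28 against control library 4 alone. Slc41a1, a plasma membrane exchanger that exports magnesium (chromosome 1, 131827493 to 131848865, plus strand), had 140, 126, 166 and 153 CPM in bigenic and at 102, 102, 95.4 and 93.3 CPM in control libraries. All bigenic values exceeded all controls (log2 0.58 ± 0.09 SE; edgeR, adjusted p = 0.00042), and the gene was called in every setting tried, as were Slc41a3 and Cnnm3.

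Slc41a2, the remaining Slc41 gene, moved the other way (chromosome 10, 83230848 to 83337882, minus strand). It was at 22.3, 20.1, 22.6 and 23.5 CPM in bigenic and at 28.1, 28.3, 28.7 and 28.1 CPM in control libraries. All bigenic libraries were below the narrow control range, and Slc41a2 fell by 0.36 ± 0.08 (SE, log2; edgeR, adjusted p = 0.0041). The adjusted p was 0.059 without control libraries 2 and 3, where the log2 fold change was -0.35. Cnnm1, a cyclin M protein of brain, had 0.34 ± 0.10 (SE, log2; adjusted p = 0.0146), with bigenic library 3 (53.0 CPM) below control library 1 (54.4 CPM) and antisense overlap with Gm47936 and Gm47938. Its call was lost with library size alone, on FPKM values and without control libraries 2 and 3 (adjusted p = 0.173). Cnnm2 had 0.09 (adjusted p = 0.54) and Cnnm4, which extrudes magnesium in gut epithelium, 0.04 (adjusted p = 0.82) on the log2 scale.

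Per length, Slc41a3 and Slc41a1 were the most abundant magnesium genes, and their order differed between groups. Slc41a3 was at 37.7 ± 3.80 FPKM in bigenic and 17.6 ± 1.95 FPKM in control libraries, and Slc41a1 at 30.4 ± 3.35 FPKM in bigenic and 21.7 ± 0.919 FPKM in control libraries (SD, n = 4). At the low end, Slc41a2 was at 4.90 ± 0.344 FPKM in bigenic and 6.64 ± 0.0549 FPKM in control libraries, and Cnnm3 at 8.62 ± 0.865 FPKM in bigenic and 3.99 ± 0.623 FPKM in control libraries. Slc41a2 was thus below Cnnm3 in bigenic libraries and above it in controls. The 7 genes together summed to 110.1 to 119.5 FPKM in bigenic and to 75.3 to 89.8 FPKM in control libraries, without overlap. Of 13 other genes linked to magnesium, 12 were tested, 0 were higher and 4 were lower in the edgeR test, a called share of 33.3% beside the 44.3% of all genes. These were Mmgt2, a Golgi and endosome magnesium transporter (log2 -1.09 ± 0.19 SE, adjusted p = 0.00099), Magt1, which also serves protein glycosylation (-0.51 ± 0.11 SE, adjusted p = 0.0027), Nipal4 (-0.91, adjusted p = 0.0075) and Nipa1 (-0.27, adjusted p = 0.019). Of these 4, Mmgt2 alone was called without control libraries 2 and 3.

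**Figure D3:**
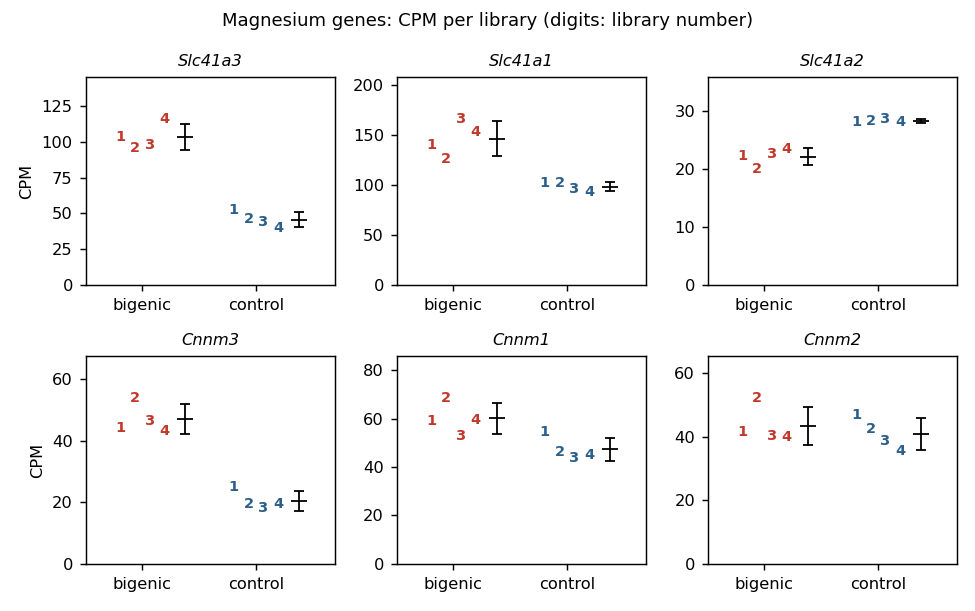
TMM-scaled CPM of 6 magnesium genes in each library, bigenic left of control, digits giving the library number and bars the mean and SD of 4. Slc41a3, Slc41a1 and Cnnm3 are higher and Slc41a2 lower in every bigenic library; Cnnm1 and Cnnm2 overlap between groups.

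Zinc exporters split evenly among called genes. Of the 8, Slc30a1 and Slc30a4 were higher and Slc30a10 and Slc30a5 were lower. Slc30a1, which exports zinc across the plasma membrane (chromosome 1, 191906767 to 191913247, plus strand, antisense to 1700034H15Rik), was at 46.6, 53.5, 74.9 and 53.0 CPM in bigenic and at 40.9, 39.5, 44.3 and 40.0 CPM in control libraries. Bigenic library 3 was the highest, and bigenic library 1 lay just above control library 3. The log2 fold change was 0.47 ± 0.13 (SE; edgeR, adjusted p = 0.0116). It was 0.49 without control libraries 2 and 3 (adjusted p = 0.072) and 0.51 against control library 4 alone.

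Slc30a10, which exports manganese in humans and mice (chromosome 1, 185454848 to 185468762, plus strand, antisense to Gm2061), was at 6.19, 6, 4.91 and 5.15 CPM in bigenic and at 9.16, 10.5, 9.09 and 10.8 CPM in control libraries. All 4 bigenic values were below all controls, 1.78-fold lower in bigenic tissue (log2 -0.83 ± 0.12 SE; edgeR, adjusted p = 0.00037). The log2 fold change was -0.84 without control libraries 2 and 3 and -0.95 against control library 4 alone, called in both. Slc30a4, a vesicular exporter (chromosome 2, 122681233 to 122702663, minus strand, antisense to 4930417H01Rik), was at 187, 159, 238 and 198 CPM in bigenic and at 154, 149, 165 and 150 CPM in control libraries. Bigenic library 2 lay below control library 3, and the log2 fold change was 0.34 ± 0.11 (SE; edgeR, adjusted p = 0.0224). It lost its call in 10 of 21 alternative settings: without bigenic library 4, control library 2 or control library 4, without control libraries 2 and 3 (0.36, adjusted p = 0.108), against control library 4 alone, with Ttr as a covariate, with library size alone and in the 3 settings on FPKM values.

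Slc30a5, which supplies zinc to secreted enzymes as a partner of Slc30a6 (chromosome 13, 100802648 to 100833427, minus strand), measured 86.7, 76.2, 86.6 and 90.8 CPM in bigenic and at 91.7, 102, 107 and 97.1 CPM in control libraries. The highest bigenic and the lowest control value almost met. Slc30a5 fell by 0.22 ± 0.08 (SE, log2; edgeR, adjusted p = 0.037), and the call was lost when bigenic library 1 or 2 or control library 2, 3 or 4 was left out, and with Ttr as a covariate. Without control libraries 2 and 3 the log2 fold change was -0.15 (adjusted p = 0.325) and against control library 4 alone it was -0.19 (adjusted p = 0.417). Its partner Slc30a6 was at 10.6 to 13.7 CPM in bigenic and 13.8 to 14.9 CPM in control libraries, a log2 fold change of -0.25 with an adjusted p of 0.060, so it was not called although no values crossed, and it was called lower in 7 of the 21 alternative settings. Slc30a9, a zinc transporter of mitochondria, was the most abundant exporter per length (85.7 ± 5.02 FPKM, SD over 8 libraries) and was not called (log2 0.14, adjusted p = 0.15), but it was called higher without bigenic library 2. Slc30a3, which fills synaptic vesicles in forebrain (0.889 FPKM), and Slc30a7 were also not called (adjusted p = 0.25 and 0.73).

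Among the 13 zinc importers 4 were lower (Slc39a10, Slc39a6, Slc39a8 and Slc39a4) and 1, Slc39a7, was higher, while 8 were not called. The called share was 38.5%, beside the 44.3% of all genes. The median log2 fold change was -0.024, against 0.089 for the exporters and -0.00414 for all genes tested. Slc39a10, a plasma membrane importer (chromosome 1, 46807544 to 46892852, minus strand), stood at 46.3, 59.8, 42.3 and 48.0 CPM in bigenic and at 83.3, 87.4, 92.2 and 97.5 CPM in control libraries. The groups were well separated, 1.83-fold lower in bigenic tissue (log2 -0.87 ± 0.10 SE; edgeR, adjusted p = 9.54e-05). It was -0.88 without control libraries 2 and 3 and -0.99 against control library 4 alone, called in both. Slc39a6, the closest relative of Slc39a10 and its partner in a heteromer, was at 29.8, 34.7, 32.1 and 33.0 CPM in bigenic and at 37.7, 37.9, 42.2 and 40.5 CPM in control libraries. Again no values crossed (log2 -0.29 ± 0.08 SE; edgeR, adjusted p = 0.0127), with an adjusted p of 0.110 without control libraries 2 and 3.

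Slc39a8, which also carries manganese and iron (chromosome 3, 135825279 to 135888572, plus strand), had 4.48, 5.17, 6.22 and 5.56 CPM in bigenic and at 6.47, 6.74, 6.76 and 8.00 CPM in control libraries. All bigenic values were below the controls, the nearest by little (log2 -0.38 ± 0.14 SE; edgeR, adjusted p = 0.037), and the call was lost when bigenic library 1, 2 or 4 or control library 2, 3 or 4 was left out, and with Ttr as a covariate. Without control libraries 2 and 3 the log2 fold change was -0.44 (adjusted p = 0.118) and against control library 4 alone it was -0.58 (adjusted p = 0.142). Slc39a7, which releases zinc from the endoplasmic reticulum and Golgi (chromosome 17, 34028269 to 34031682, minus strand, overlapping Gm20427 on the same strand), was at 117, 107, 111 and 114 CPM in bigenic and at 109, 96.9, 90.6 and 91.9 CPM in control libraries. Control library 1 lay within the bigenic range. The log2 fold change was 0.21 ± 0.08 (SE; edgeR, adjusted p = 0.042), and this was the least stable of the higher calls, lost in 15 of 21 alternative settings, among them those that left out bigenic library 1, 3 or 4 or control library 2, 3 or 4.

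Slc39a4, known for zinc uptake in the intestine (chromosome 15, 76612383 to 76617384, minus strand), was barely detected, at 0.171, 0.325, 0.389 and 0.250 CPM in bigenic and at 0.269, 1.26, 2.11 and 0.274 CPM in control libraries. Its high values were in control libraries 2 and 3, the libraries richest in Ttr, while control libraries 1 and 4 lay among the bigenic ones. It had a log2 fold change of -1.77 ± 0.64 (SE; edgeR, adjusted p = 0.043), and the sign turned to 0.059 without control libraries 2 and 3, to 0.047 against control library 4 alone and to 0.51 with Ttr as a covariate. The call was also lost when any 1 bigenic library, or control library 2 or 3, was left out. Slc39a12, a brain importer and per length the most abundant of the family (56.0 ± 7.62 FPKM, SD over 8 libraries), was at 161, 134, 198 and 162 CPM in bigenic and at 119, 135, 148 and 144 CPM in control libraries. It overlapped between groups and was not called (log2 0.27, adjusted p = 0.074), though it was called higher without bigenic library 2. Slc39a14, a close relative of Slc39a8 that carries manganese and iron, had a log2 fold change of 0.02 and was not called. The summed FPKM of the importers ranged over 184.0 to 197.4 in bigenic and 196.2 to 202.9 in control libraries, and that of the exporters over 149.9 to 185.0 in bigenic and 161.9 to 170.4 in control libraries.

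The genes that buffer and sense zinc were listed with the transporters. Of 7, 5 were tested. Mt1, Mt2 and Mt3 were higher and Mtf1 was lower, a called share of 80.0% of these few genes beside the 44.3% of all genes. Metallothioneins are small cysteine-rich proteins that bind zinc and copper, and Mt1 and Mt2 had the largest increases of the zinc genes tested. Mt1 was at 783, 608, 824 and 842 CPM in bigenic and at 226, 201, 191 and 214 CPM in control libraries (3.67-fold; edgeR, adjusted p = 1.84e-06), and Mt2 at 388, 298, 544 and 481 CPM in bigenic and at 74.6, 66.8, 58.9 and 70.5 CPM in control libraries (6.32-fold; adjusted p = 2.70e-06, with antisense overlap with Gm45774). In both, bigenic library 2 was the lowest bigenic value and still above every control, and both were called without control libraries 2 and 3 (log2 1.80 and 2.56) and against control library 4 alone. Mt3, the neural metallothionein, had 0.20 (adjusted p = 0.022) and Mtf1, the zinc-sensing transcription factor that acts on Mt1, Mt2 and Slc30a1, had -0.25 on the log2 scale (adjusted p = 0.035, with antisense overlap with 1110065P20Rik). Both of these calls were lost without control libraries 2 and 3, and also without bigenic library 1, control library 2 or control library 3; that of Mt3 was lost with library size alone as well.

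Metal-responsive elements, which Mtf1 binds, share a short core, searched here as TGCACNC or TGCGCNC on both strands, letters that cannot both match at one place on a strand. Windows reaching 250 bases before and 50 bases after each RefSeq transcription start (GRCm38.p6) were available for 36 of the 42 metal genes, and 20 held a match. Among all 27025 genes with a window 28.2% did. That share and those below include genes without reads in cerebellum, whereas the metal genes had passed a minimum of counts. The shares are therefore not like for like, and an excess was not tested. Of the 17 called genes with a window, 12 held a match, beside 20 of all 36 metal genes with a window, called or not. A difference between called genes and genes not called was not tested. Slc30a1 had 2 matches, Slc30a10 and Slc30a4 had 3 each, Mt1 had 3 and Mt2 had 4, and 8.07% of genes had 2 or more and 2.27% had 3 or more. Slc39a10 had none in these letters. The 100 bases before the RefSeq start are shown for Slc30a1, Mt1 and Mt2, which were higher and are known targets of Mtf1, with the match in this stretch in capitals. GENCODE M21 starts Slc30a1 14 bases and Mt1 7 bases before the RefSeq start and Mt2 46 bases after it, and the start used in these samples was not measured, so distances to the start are uncertain.
Slc30a1, chr1:191906681-191906780, plus strand: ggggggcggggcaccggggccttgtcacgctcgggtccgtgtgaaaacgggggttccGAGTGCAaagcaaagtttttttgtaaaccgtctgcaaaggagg
Mt1, chr8:94178989-94179088, plus strand: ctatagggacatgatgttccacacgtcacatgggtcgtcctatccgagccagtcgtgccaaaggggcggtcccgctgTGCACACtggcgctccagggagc
Mt2, chr8:94172518-94172617, plus strand: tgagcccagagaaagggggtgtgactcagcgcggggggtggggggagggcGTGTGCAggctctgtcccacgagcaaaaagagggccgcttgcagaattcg
Genes that were higher and genes that were lower both held matches: Slc30a1 and Slc30a4 were higher, and Slc30a10, with 3 matches, was lower. A match describes the sequence and does not show that a factor is bound.

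**Figure D4:**
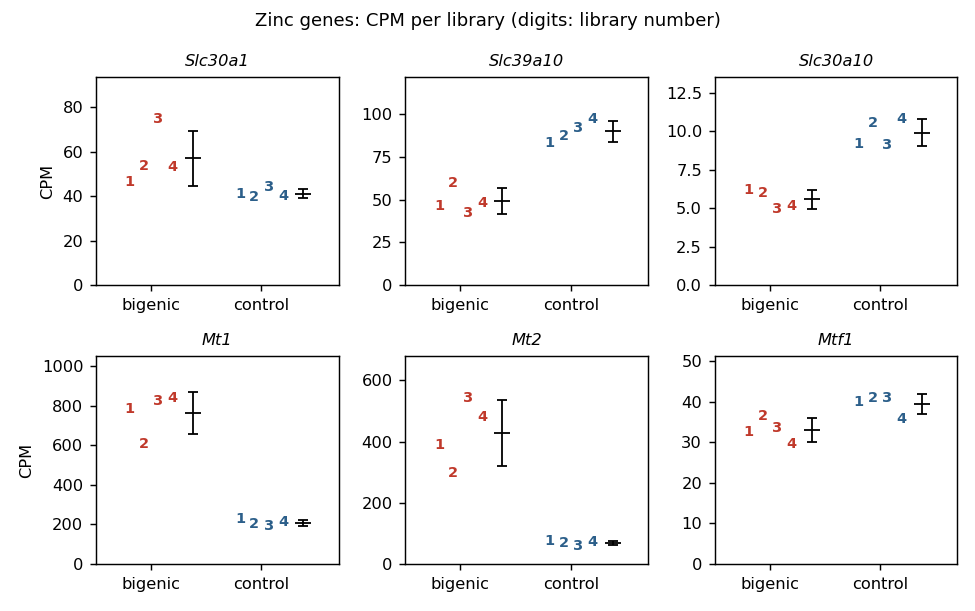
TMM-scaled CPM of Slc30a1, Slc39a10, Slc30a10, Mt1, Mt2 and Mtf1 in each library, bigenic left of control, digits giving the library number and bars the mean and SD of 4. Slc30a1, Mt1 and Mt2 lie above and Slc39a10 and Slc30a10 below every control value in all 4 bigenic libraries, whereas Mtf1 overlaps.

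Of the 4 copper transporters, Atp7a was lower and the other 3 were not called. The called share was 25.0% of these few genes, beside the 44.3% of all genes. The median log2 fold change was -0.32, against -0.00414 for all genes tested. Atp7a, the pump that exports copper and loads it into secreted enzymes (chromosome X, 106027276 to 106124926, plus strand), measured 17.2, 17.8, 16.9 and 18.7 CPM in bigenic and at 23.2, 30.3, 31.2 and 24.9 CPM in control libraries. All bigenic values were below all controls, and the highest controls were libraries 2 and 3. Atp7a was 1.55-fold lower in bigenic tissue (log2 -0.63 ± 0.11 SE; edgeR, adjusted p = 0.00081). The log2 fold change was -0.45 without control libraries 2 and 3, where it was called, -0.49 against control library 4 alone (adjusted p = 0.080) and -0.43 with Ttr as a covariate (adjusted p = 0.065).

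Slc31a1, the main copper importer, was at 20.5, 23.2, 25.6 and 27.4 CPM in bigenic and at 21.2, 36.9, 42.6 and 23.2 CPM in control libraries. Control libraries 2 and 3 were again the highest, and control libraries 1 and 4 lay within the bigenic range. Slc31a1 was not called (log2 -0.36 ± 0.20 SE; edgeR, adjusted p = 0.17), and the log2 fold change was 0.12 without control libraries 2 and 3 and 0.062 against control library 4 alone. Without control library 1 it was called lower (adjusted p = 0.048). Atp7b, the related pump best known from liver, was at 1.54, 3.22, 1.02 and 1.72 CPM in bigenic and at 2.28, 2.49, 2.13 and 2.24 CPM in control libraries. Bigenic library 2 lay above all other libraries and the other 3 bigenic libraries below all controls (log2 -0.28 ± 0.29 SE, adjusted p = 0.45). Without bigenic library 2 Atp7b was called lower. Slc31a2, a relative of Slc31a1, had a log2 fold change of -0.01 (adjusted p = 0.95). Per length, Slc31a1 (7.38 ± 2.22 FPKM) and Slc31a2 (6.17 ± 1.06 FPKM) were the most abundant of the 4 and did not differ beyond their SD over 8 libraries.

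**Figure D5:**
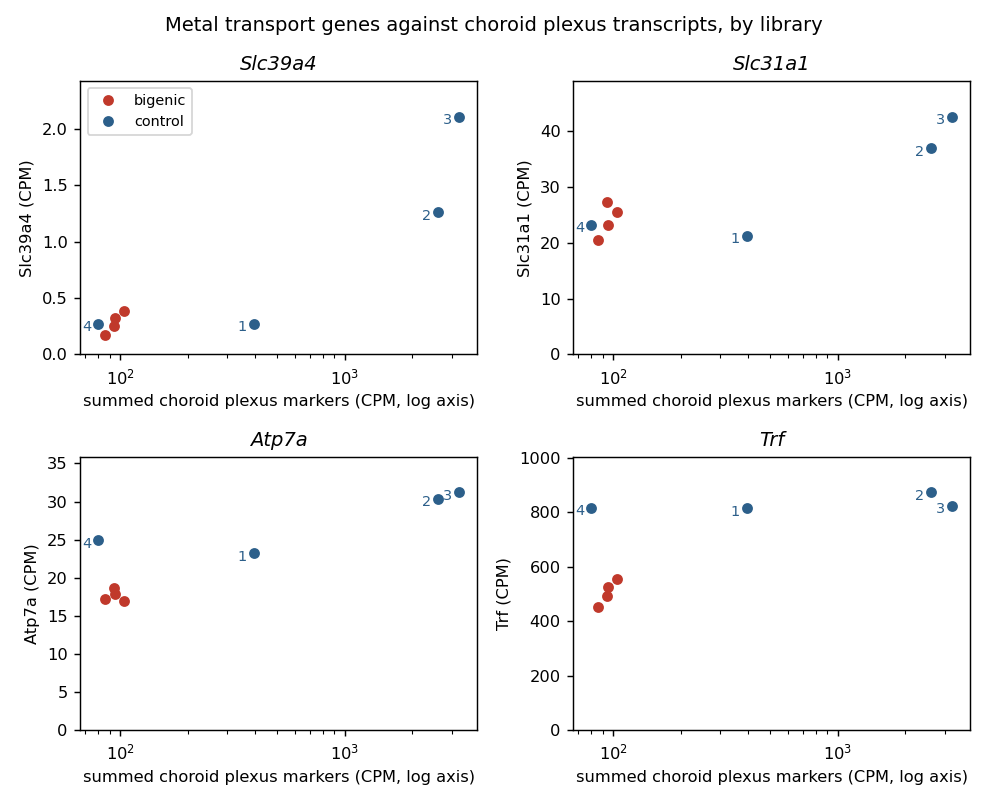
TMM-scaled CPM of Trf, Atp7a, Slc31a1 and Slc39a4 in each library against the summed CPM of the choroid plexus markers on a log axis, with control libraries numbered. Slc39a4, Slc31a1 and Atp7a are highest in control libraries 2 and 3, where that sum is highest (2601 and 3242 CPM), while Trf is near 814 to 873 CPM in all 4 controls.

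Copper chaperones and copper-handling genes were listed in addition. All 11 were tested, 1 was higher and 4 were lower in bigenic cerebellum, a called share of 45.5% beside the 44.3% of all genes. The lower ones were Cuta, a small protein that binds copper in vitro (log2 -0.52 ± 0.09 SE; edgeR, adjusted p = 0.00071), Sco1 (-0.36 ± 0.08 SE, adjusted p = 0.0035) and Cox17 (-0.37 ± 0.10 SE, adjusted p = 0.0135), which pass copper to cytochrome c oxidase, and Commd1 (-0.37 ± 0.09 SE, adjusted p = 0.0056), which acts in the sorting of Atp7a and Atp7b. Sco1 was not past the threshold without control libraries 2 and 3, and the other 3 were. Over all 64 listed zinc, magnesium, iron and copper companions, 55 were tested, 12 were higher and 15 were lower, a called share of 49.1% beside the 44.3% of all genes.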

How the data were processed

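Whole cerebellum of 8 mice (4 bigenic, 4 control) was sequenced as bulk RNA. STAR, HTSeq and the build mm10 are named in the submitters' processing notes; versions and the strand setting are not given in the sources used here, so overlapping and antisense genes may share reads. The labels disagree on the library kit and instrument. The authors deposited whole-number counts per gene and FPKM values, which equal the counts divided by gene length and column total (16362 genes checked, largest relative deviation 2.3e-07). Depth was 35208460 to 38293012 counted reads per library.

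Counts were fitted in R 4.3.3 with edgeR 4.0.16 (filterByExpr, TMM, robust quasi-likelihood F test) over 15186 genes, with Benjamini-Hochberg adjustment over all of them and a threshold of 0.05. CPM are TMM-scaled, and log2 fold changes are bigenic over control with the standard error of the fit. Fits were tested on simulated counts. Alternatives used other scalings, other filters, DESeq2 1.42.0, limma 3.58.1 on log2(FPKM + 1) and log2(FPKM + 0.1), a replicate block, Ttr as a covariate and left-out libraries. Fold changes on log2(FPKM + 1) understate changes of low genes.

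Genes and lists were chosen with earlier results of these data known. Values in every library are given for called genes among the 4 smallest p of their role and for Trf, Tfrc, Slc40a1, Cp, Fth1, Ftl1, Slc31a1, Atp7a and Atp7b; Slc39a4 and Slc39a12 were added after their values were seen. Up to 4 companion genes per list and the marker with the highest CPM of each cell type are named. Alas2 is that marker for erythroid cells and is also on the iron list, where it is not among the 4 smallest p. Aldh1l1 is named for its position before Slc41a3. All 42 symbols matched GENCODE M21, which gave coordinates, counted from 1.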

Additional observations from a re-analysis of the deposited data

Results flagged for a closer look

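In 4 of 116 groups of 4 libraries, over 58 genes, the highest or lowest library lay farther from the other 3 than Dixon's 95% critical value allows for the group's range. Chance marks about 1 group in 20 (5%), so this is no more than chance gives. Cnnm2 was at 52.4 CPM in bigenic library 2, with the other bigenic libraries at 40.0 to 41.6 CPM. Slc39a2, a zinc importer that was not called, was at 0.872 CPM in control library 4, with the other controls at 1.51 to 1.58 CPM. Trf was at 873 CPM in control library 2, with the other controls at 814 to 823 CPM. Commd1 was at 27.4 CPM in control library 4, with the other controls at 23.6 to 23.8 CPM.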

How the results depend on the processing

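Over 42 metal genes and 21 alternatives, 731 of 882 results kept their direction and their side of the threshold, 85 were no longer called and 13 became called. A further 50 results, of 11 genes called in neither fit, changed sign, to values between -0.066 and 0.245. The only called gene to change sign was Slc39a4, in 3 settings, at 0.059 without control libraries 2 and 3, 0.047 without control libraries 1, 2 and 3 and 0.51 with Ttr as a covariate. The companion Steap1, chosen after its values were seen, changed sign to 0.21 with Ttr as a covariate. Of the 22 called genes, 9 were called under 20 of the 21 alternatives, all but the one without control libraries 1, 2 and 3: Cnnm3, Cp, Ireb2, Slc30a10, Slc39a10, Slc41a1, Slc41a3, Tfrc and Trf. Of these, Tfrc and Ireb2 were not called in the remaining one. Metal genes called were 6 higher and 4 lower without control libraries 2 and 3, 4 higher and 3 lower without control libraries 1, 2 and 3, and 7 higher and 3 lower with Ttr as a covariate, where 21.9%, 11.6% and 19.3% of all genes were called; 7 were higher on unfiltered log2(FPKM + 1) values, as were 10.1% of all genes. Companions were 7 higher and 4 lower, 4 higher and 2 lower, and 5 higher and 4 lower under those 3 library or covariate settings. The first 2 of these settings also leave fewer controls. Leaving out each library in turn gave 10 to 15 higher and 7 to 11 lower metal genes and 9 to 14 higher and 11 to 15 lower companions, with 34.5% to 48.3% of all genes called. Deviations from the group mean correlated at 0.0239 to 0.329 between same-numbered mice and at -0.278 to 0.1 between mice of different numbers. The labels do not say that same-numbered mice were paired, and whether they share more than a number was not tested. With the replicate block 13 metal genes were higher, Slc39a12 being added, and 10 lower. The companion Alas2 was not called with the block, and 49.0% of all genes were called against 44.3% without it. Low counts limit Slc39a4, Slc39a2, Slc11a1 and Slc30a3, all under 3 CPM in every library.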
